A study of Saccharomyces cerevisiae with 4 samples.

Results

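The proteasome is the large protease that degrades proteins marked with ubiquitin. Its 20S core is a stack of alpha and beta rings that hold the cutting sites inside, and its 19S cap, built from a base with a ring of RPT ATPases and a lid of RPN subunits, binds, unfolds and feeds in the substrates. In budding yeast the subunit genes share an activator, Rpn4, a short-lived transcription factor that binds a promoter word called PACE and is itself degraded by the proteasome. The RPN4 gene is known to be controlled in turn by Hsf1, the heat shock transcription factor, and by Yap1, Pdr1 and Pdr3.

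The 42 genes described here were chosen by name: 14 genes for 20S subunits, 19 for 19S subunits, 8 for assembly factors and activators, and RPN4. They were found under their systematic names among the 7126 features measured, and all 42 had a mean of at least 5 normalised reads over the libraries, the level at which 5642 features were kept. RNA came from 4 cultures of Saccharomyces cerevisiae strain DPY438, whose genotype label is Hsf1-AA, so every library carries the anchor-away allele. Anchor-away is a method in which rapamycin ties a tagged nuclear protein to a carrier that leaves the nucleus, here to withdraw Hsf1. Cells kept at 30 °C made a drug-free group and a group given 1 µM rapamycin (45 min), and cells shifted to 39 °C (10 min, the heat shock) were split likewise. Each of the 4 groups was 1 library, and values below follow the order 30 °C drug-free, 30 °C rapamycin, 39 °C drug-free, 39 °C rapamycin. No library of an untagged strain with rapamycin is among them, so withdrawal of Hsf1 and other effects of the drug cannot be told apart.

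With 1 library a group no difference between a pair of groups could be tested, nor whether heat acted differently with rapamycin. An additive model over the 4 libraries leaves 1 residual degree of freedom, and its calls stand at the end. Values are the deposited normalised read counts, ratios were taken on log2(value + 1), and each fold is followed by its 95% counting interval in parentheses, which leaves out variation between cultures. A 2-fold and a 1.5-fold difference serve as rules of size. The libraries held 1561620, 3231228, 2026880 and 2254007 assigned reads, of which the 42 genes took 8855, 13121, 12282 and 13322. That is 0.567%, 0.406%, 0.606% and 0.591% of all reads, with exact binomial intervals of 0.555 to 0.579%, 0.399 to 0.413%, 0.595 to 0.617% and 0.581 to 0.601%. SSA4, an inducible Hsp70 gene that serves to check the treatments, was at 169, 525, 42107 and 402. HSP104, the gene of a disaggregase that is also induced by heat, was at 1473, 1046, 54770 and 7314, still higher in heat shock with rapamycin than at 30 °C with it. The share of reads in protein-coding genes was 64.7%, 59.5%, 59.6% and 66.5%, so the scale matters: dividing by library totals moved the median of all features by -0.44 in heat shock without rapamycin, by 0.40 in heat shock with it, by -0.35 between the libraries at 30 °C and by 0.48 between those at 39 °C. Differences of the gene group are therefore also given relative to the median of all features. A scaling shifts all features alike, so this value hardly moves by construction, which is no check of the result. It was 0.38 for the 42 genes in heat shock without rapamycin, and -0.51 between the libraries at 39 °C, on either scale. Read counts are relative within a library, and a change in mRNA per cell that all genes share would not be seen.

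The promoter words are what most of these genes share beyond their names. PACE, GGTGGCAAA or its reverse complement TTTGCCACC, lay within 250 bases before the start codon in 27 of the 42 genes, against 68 of 6001 protein-coding genes of the genome (1.13%). All 27 were subunit genes, 27 of 33 (81.8%): 6 of 7 alpha, 6 of 7 beta, all 6 RPT, 2 of 4 other base genes and 7 of 9 lid genes. Each had 1 copy, 75 to 174 bases from the start codon with a median of 111, and 19 of the 27 read in the direction of the gene. No assembly factor held the word, nor did RPN4. The stretches below show, for each subunit role, the PACE gene with the largest heat shock ratio without rapamycin, in capitals for PACE, on the gene's strand in build R64, the assembly that sacCer3 names. They lie at chrXV:1018841-1018900 (minus strand, PRE10), chrXVI:732168-732227 (plus, PRE2), chrXV:544839-544898 (plus, RPT5), chrIX:220786-220845 (minus, RPN2) and chrXVI:742274-742333 (plus, RPN7).
PRE10: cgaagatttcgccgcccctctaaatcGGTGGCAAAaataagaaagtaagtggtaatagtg
PRE2: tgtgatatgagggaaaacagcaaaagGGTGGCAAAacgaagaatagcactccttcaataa
RPT5: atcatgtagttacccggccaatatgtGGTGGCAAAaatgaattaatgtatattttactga
RPN2: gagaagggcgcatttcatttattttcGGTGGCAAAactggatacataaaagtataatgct
RPN7: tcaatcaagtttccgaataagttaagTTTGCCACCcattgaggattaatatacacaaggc

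PRE5, PUP1 and RPN8 lacked the whole word but held its 8-base core, GTGGCAAA, so that 30 of 33 subunit genes had at least the core, which lay in 2.27% of all promoters of that length. They are shown because they mark the edge of the exact search, with the core in capitals, at chrXIII:901537-901596 (plus), chrXV:631875-631934 (minus) and chrXV:817069-817128 (minus). SEM1, RPN10 and RPN13 held neither.
PRE5: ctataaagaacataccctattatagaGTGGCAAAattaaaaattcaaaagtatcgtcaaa
PUP1: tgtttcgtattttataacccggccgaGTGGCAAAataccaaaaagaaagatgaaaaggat
RPN8: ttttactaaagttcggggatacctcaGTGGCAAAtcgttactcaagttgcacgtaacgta

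**Figure D1:**
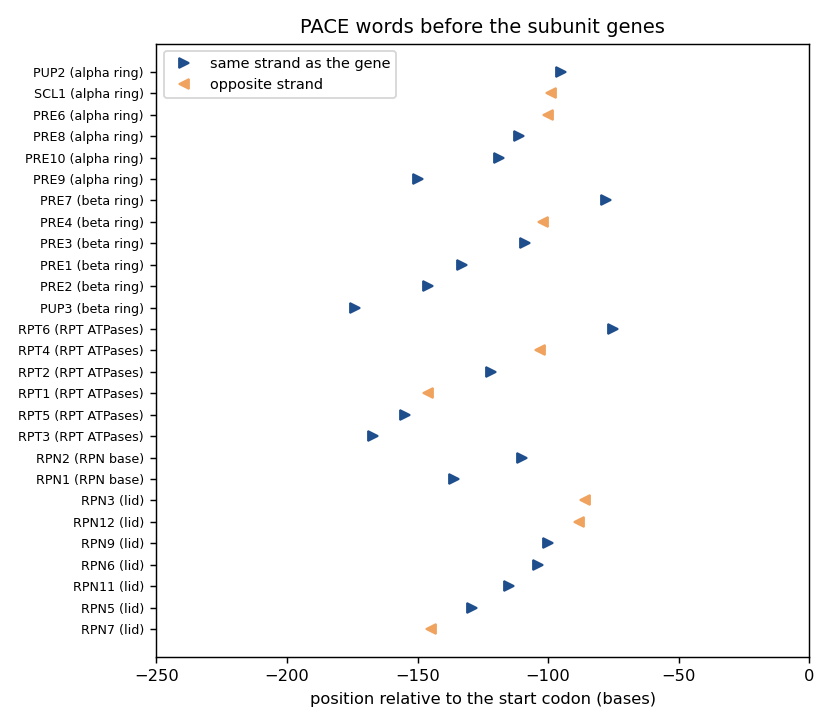
Position of the PACE word before the 27 subunit genes that hold it, in bases before the start codon, by gene and role. Markers pointing right lie on the gene's strand and markers pointing left on the opposite strand; the words lie 75 to 174 bases from the start codon.

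RPN4 was the member whose promoter held a perfect heat shock element, a run of inverted nGAAn units without a mismatch, searched on both strands. In 250 bases 45 of 6001 genes held 1 (0.750%). One word ended 8 bases before the RPN4 start codon. A window of 500 bases, tried after the data were seen, found a further word 335 bases before the start codon, and RPN4 was still the 1 member of 42 with a match, against 1.48% of 6000 genes. The window of 250 bases, chrIV:416709-416958 on the minus strand, and the stretch around the distal word, chrIV:417021-417080, are printed with the words in capitals.
RPN4: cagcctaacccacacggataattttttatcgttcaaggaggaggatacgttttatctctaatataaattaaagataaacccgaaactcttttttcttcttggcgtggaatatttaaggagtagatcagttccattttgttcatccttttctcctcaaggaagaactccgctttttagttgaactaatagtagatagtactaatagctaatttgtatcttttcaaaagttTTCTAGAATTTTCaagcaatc
RPN4, distal: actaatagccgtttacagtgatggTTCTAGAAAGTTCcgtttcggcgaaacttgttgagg

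STRE, AGGGG or CCCCT, the word of the general stress factors Msn2 and Msn4, lay in 8 of the 42 promoters (19.05%), close to its 18.8% among all. PDRE, read by Pdr1 and Pdr3 and searched only as the exact word TCCGCGGA, lay in none, against 0.167% of all. Variants of that word were not searched. In the window of 500 bases 15 of the 42 genes held STRE, against 34.1% of all, and TMA17, NAS2 and NAS6 were the assembly genes among them. Within 250 bases TMA17 alone of the assembly genes held it, at 155 and at 58 bases before its start codon. These stretches, chrIV:265092-265151 and chrIV:264995-265054 on the minus strand, are shown because TMA17 had the largest heat shock ratio of the assembly genes.
TMA17, distal: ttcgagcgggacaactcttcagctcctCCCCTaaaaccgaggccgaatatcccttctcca
TMA17, proximal: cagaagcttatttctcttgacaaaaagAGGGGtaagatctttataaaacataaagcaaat

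RPN4 had the largest ratio of the 42 genes in heat shock without rapamycin and the lowest with rapamycin in heat shock. In heat shock with rapamycin TMA17 had the largest, and IRC25 had the lowest at 30 °C. RPN4 (YDL020C, chromosome IV, 415113 to 416708) was at 224, 123, 1120 and 257 normalised reads. Heat shock without rapamycin stood far above the other 3 libraries, which lay between 123 and 257. The heat shock ratio was 4.97-fold (4.195 to 5.96) without rapamycin and 2.07-fold (1.69 to 2.57) with it. The ratio of those folds was 2.40 (1.82 to 3.17), a difference of -1.27 on the log2 scale, which was -0.42 when libraries were divided by their totals. With rapamycin RPN4 was 1.81-fold lower at 30 °C (1.44 to 2.30) and 4.35-fold lower in heat shock (3.79 to 5.04). The lower level with rapamycin in heat shock kept its sign on every scaling, at -1.63 on library totals against -2.12 as deposited.

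The known regulators of RPN4 had smaller ratios than RPN4 in heat shock without rapamycin, while in heat shock with rapamycin HSF1 stood as high as RPN4, at 2.08-fold and 2.07-fold. HSF1, whose protein is withdrawn while the gene is left in place, was at 157, 107, 288 and 225, and YAP1, an oxidative stress factor, at 197, 206, 348 and 250. In heat shock without rapamycin 2 of the 7 listed regulators were at least 1.5-fold higher, a share near the 30.4% of all features, HSF1 at 1.83-fold (1.44 to 2.34) and YAP1 at 1.76-fold (1.42 to 2.19). With rapamycin HSF1 was 2.08-fold higher (1.67 to 2.63) and YAP1 1.21-fold (1.01 to 1.45). PDR1, a regulator of drug resistance genes, was at 196, 156, 181 and 99.0, lowest in heat shock with rapamycin, and its paralog PDR3 at 97.2, 86.2, 81.0 and 79.7. The genes of the proteins that mark Rpn4 for degradation stayed within 1.5-fold in both heat shock comparisons: the ubiquitin ligase gene UBR2 was at 206, 122, 234 and 165, its partner MUB1 at 114, 115, 121 and 112, and the ubiquitin-conjugating enzyme gene RAD6 at 88.6, 105, 98.9 and 88.4. UBR2 was the regulator gene that stood at least 1.5-fold lower with rapamycin at 30 °C, by 1.69-fold (1.33 to 2.15).

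**Figure D2:**
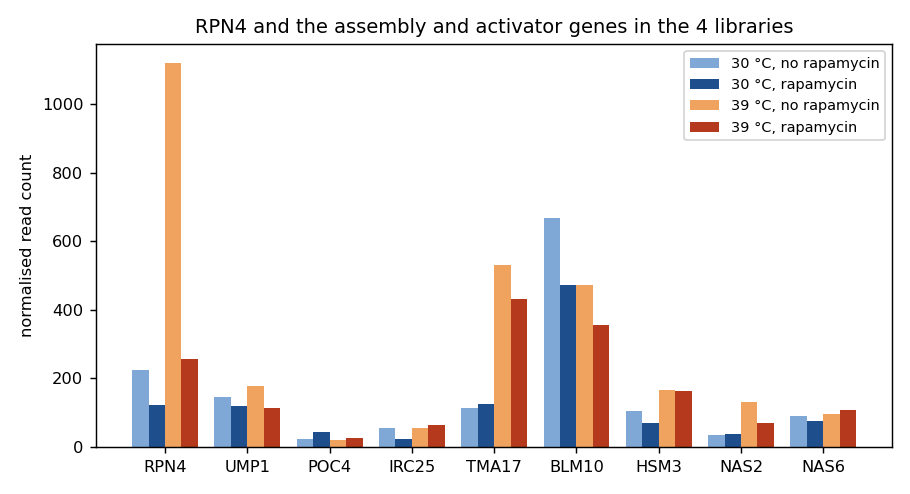
Normalised read counts (bars, linear axis from 0) of RPN4 and the 8 assembly and activator genes in the 4 libraries, 1 library a bar, so no error bars are drawn. RPN4 reached 1120 in heat shock without rapamycin and 257 with it, whereas TMA17 was at 532 and 431; bars of different genes are not scaled to gene length.

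The assembly factors did not move as a group. TMA17, a chaperone of RPT ring assembly that RefSeq also lists as ADC17 (YDL110C, chromosome IV, 264512 to 264964), was at 114, 125, 532 and 431. The heat shock libraries were high whether or not rapamycin was present. Without the drug its heat shock fold was 4.62 (3.64 to 6.01) and with it 3.42 (2.84 to 4.19), and the ratio of those folds was 1.35 (0.983 to 1.86). With rapamycin it was 1.09-fold higher at 30 °C (0.827 to 1.46) and 1.23-fold lower in heat shock (1.07 to 1.42).

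NAS2, HSM3 and NAS6 encode chaperones that each bind an RPT subunit during assembly of the base. NAS2 (YIL007C) was at 35.7, 38.2, 132 and 69.2. Its heat shock fold was 3.62 (2.34 to 6.01) without the drug and 1.79 (1.22 to 2.71) with it, and in heat shock it was 1.89-fold lower with rapamycin (1.38 to 2.64). HSM3 (YBR272C) was at 104, 70.2, 166 and 163, with the heat shock libraries alike. Its folds in heat shock were 1.59 (1.18 to 2.17) without and 2.31 (1.77 to 3.08) with rapamycin, and at 30 °C it was 1.48-fold lower with rapamycin (1.07 to 2.07). NAS6 (YGR232W) was at 91.5, 75.5, 97.4 and 107, within 1.5-fold in every comparison.

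The core particle factors differed from each other. UMP1, the maturation factor of the 20S core (YBR173C), was at 144, 120, 177 and 112, and was 1.57-fold lower with rapamycin in heat shock (1.21 to 2.05). IRC25 and POC4 encode partners in a dimer that helps to build the alpha ring, and both were low, with 27 to 66 and 14 to 49 reads a library. IRC25 (YLR021W) was at 55.8, 23.99, 54.0 and 63.4, so that the library at 30 °C with rapamycin alone was low. Its heat shock ratio was 2.58-fold with rapamycin (1.67 to 4.30) and 1.03-fold in the lower direction without it (0.640 to 1.67), the largest difference of heat shock ratios in the higher direction among the 42 (1.41 on the log2 scale). POC4 (YPL144W) was at 24.3, 43.5, 21.0 and 25.9, highest where IRC25 was lowest. It was 1.76-fold higher with rapamycin at 30 °C (1.01 to 3.32), whereas IRC25 was 2.27-fold lower (1.39 to 3.95). BLM10, an activator that caps the core in place of the 19S (YFL007W), was at 668, 473, 474 and 355. It was the assembly gene whose interval lay below 1 in all 4 comparisons, with folds of 1.33 to 1.41 in the lower direction.

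In heat shock without rapamycin the subunit genes stood modestly and broadly higher. Of the 33, 30 had ratios above 0, against 50.8% of all features, and the counting interval lay above 0 for 23 and below for 1. How many of all features had such intervals was not counted, in this or any other comparison. Counting error was smaller for the subunits, with a median standard error of 0.13 against 0.26 for all features. Their median was 0.42, or 0.39 above the median of all features, and their summed level went from 11197 to 15641, a log2 ratio of 0.48 (0.44 to 0.52). On library totals the median was -0.027 and 16 of 33 were above 0 (34.9% of all features). The median relative to all features was 0.39 there too, by construction. Of all 42 genes 8 were at least 2-fold higher (19.05%), close to the 19.8% of all features, and 13 at least 1.5-fold (31.0%, all features 30.4%). None was at least 2-fold lower, where 19.3% of all features were, and none at least 1.5-fold lower, where 29.3% were. On library totals 3 of the 42 were at least 2-fold higher (12.8% of all features) and 0 lower (30.1%), and by 1.5-fold 7 were higher (19.4%) and 3 lower (44.2%).

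Besides RPN4, TMA17 and NAS2 the genes past 2-fold were PRE10, PRE2, PRE7, RPN7 and RPN8. PRE2, the gene of the chymotrypsin-like catalytic subunit (YPR103W, chromosome XVI, 732349 to 733212), was at 249, 243, 582 and 408. Both heat shock libraries were above both libraries at 30 °C, by 2.33-fold without rapamycin (1.95 to 2.81) and 1.68-fold with it (1.44 to 1.97). PRE7, another beta subunit gene, was at 244, 271, 499 and 336, and the alpha subunit gene PRE10 at 210.2, 290, 448 and 341. They were 2.04-fold (1.69 to 2.47) and 2.13-fold higher (1.75 to 2.62). The lid genes RPN7 (204, 292, 489 and 320) and RPN8 (237, 394, 537 and 380) were 2.38-fold (1.96 to 2.93) and 2.26-fold higher (1.88 to 2.74). PRE7, PRE10, RPN7 and RPN8 had their lowest value at 30 °C without rapamycin, which enters these folds.

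The roles overlapped. Medians were 0.39 for the alpha ring, 0.38 for the beta ring, 0.48 for the RPT ATPases, 0.34 for the other base genes and 0.44 for the lid. The lowest alpha gene was PRE9, the 1 alpha subunit that yeast can live without, at 390, 389, 408 and 365, nearly level in the 4 libraries. The lowest beta gene was PRE4 at 355, 211, 340 and 208, which was lower with rapamycin at both temperatures. Among the RPT genes the range ran from RPT6 (406, 340, 426 and 351; 1.05-fold, 0.886 to 1.24) to RPT5 (275, 391, 469 and 324; 1.71-fold, 1.42 to 2.06). RPN10, a ubiquitin receptor gene, was the 1 subunit gene whose interval lay below 0: it was at 292, 282, 226 and 179, and 1.29-fold lower (1.04 to 1.601). RPN13, also the gene of a ubiquitin receptor, was at 157, 274, 249 and 199 and stood highest in its role at 1.58-fold (1.24 to 2.03). RPN12 was the lowest of the lid, at 227, 193, 282 and 206, a ratio of 0.31.

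In heat shock with rapamycin the subunit genes were centred on the median of all features. Of the 33, 18 had ratios above 0 (all features 49.9%), with a median of 0.04, also 0.04 relative to all features, and intervals above 0 for 11 and below 0 for 6. The summed level went from 10564 to 11216, a log2 ratio of 0.09 (0.05 to 0.12). On library totals 30 were above 0 (67.1% of all features) with a median of 0.44. Of all 42 genes 4 were at least 2-fold higher (18.3% of all features), TMA17, IRC25, HSM3 and RPN4, and 8 at least 1.5-fold (28.4%). None was at least 2-fold lower (14.6% of all features), and 2 were at least 1.5-fold lower (25.9%), RPN10 and POC4. On library totals 8 were at least 2-fold higher, where 28.02% of all features were.

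Some subunit genes were nonetheless higher. RPN5, a lid scaffold gene (YDL147W, chromosome IV, 190924 to 192261), was at 440.3, 349, 808 and 617. On the deposited scale it had nearly the same ratio in both arms, 1.83-fold (1.59 to 2.12) and 1.76-fold (1.56 to 2.01). Library totals move all features by -0.44 without rapamycin and by 0.40 with it, so this likeness depends on the scale. RPN11, the gene of the lid's deubiquitinating enzyme, was at 286, 191, 423 and 312, with ratios of 0.56 and 0.71. SCL1 led the alpha ring at 376, 218, 441 and 319, 1.46-fold higher (1.24 to 1.74), a ratio that its low value at 30 °C with rapamycin enters. RPN2, the large scaffold gene of the base, was at 1065, 911, 1402 and 1027 with a ratio of 0.17, and RPT2 at 389, 277, 549 and 331 with 0.26. RPN11 falls outside the rule for naming genes and was chosen after its values were seen, as were CDC48 and ECM29 below.

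Others were lower in heat shock than at 30 °C within the rapamycin arm, on the deposited scale. The lowest of each role were PRE8, PUP3, RPT1, RPN10 and SEM1. Library totals moved all features by 0.40 in this comparison, and 30 of the 33 subunit genes were then above 0. PRE8 was at 236, 251, 309 and 214 (1.17-fold lower, 0.977 to 1.4002) and PUP3 at 273, 318, 268 and 249 (1.28-fold, 1.09 to 1.51). RPT1 was at 375, 427, 520.3 and 343 (1.25-fold, 1.08 to 1.43). SEM1, the gene of a small acidic lid protein, was at 124, 153, 159 and 104 and 1.47-fold lower (1.15 to 1.89). RPN10 was 1.57-fold lower (1.31 to 1.90), so that it was below its 30 °C level in both arms. The heat shock ratios with and without rapamycin share no library. Over the 33 subunit genes they had a Pearson r of 0.40 and a Spearman rho of 0.31, given as a description, since counting noise and library makeup enter both. On the deposited scale both ratios were above 0 in 18 genes, in 3 both were below and in 12 the ratio was above 0 without rapamycin alone.

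**Figure D3:**
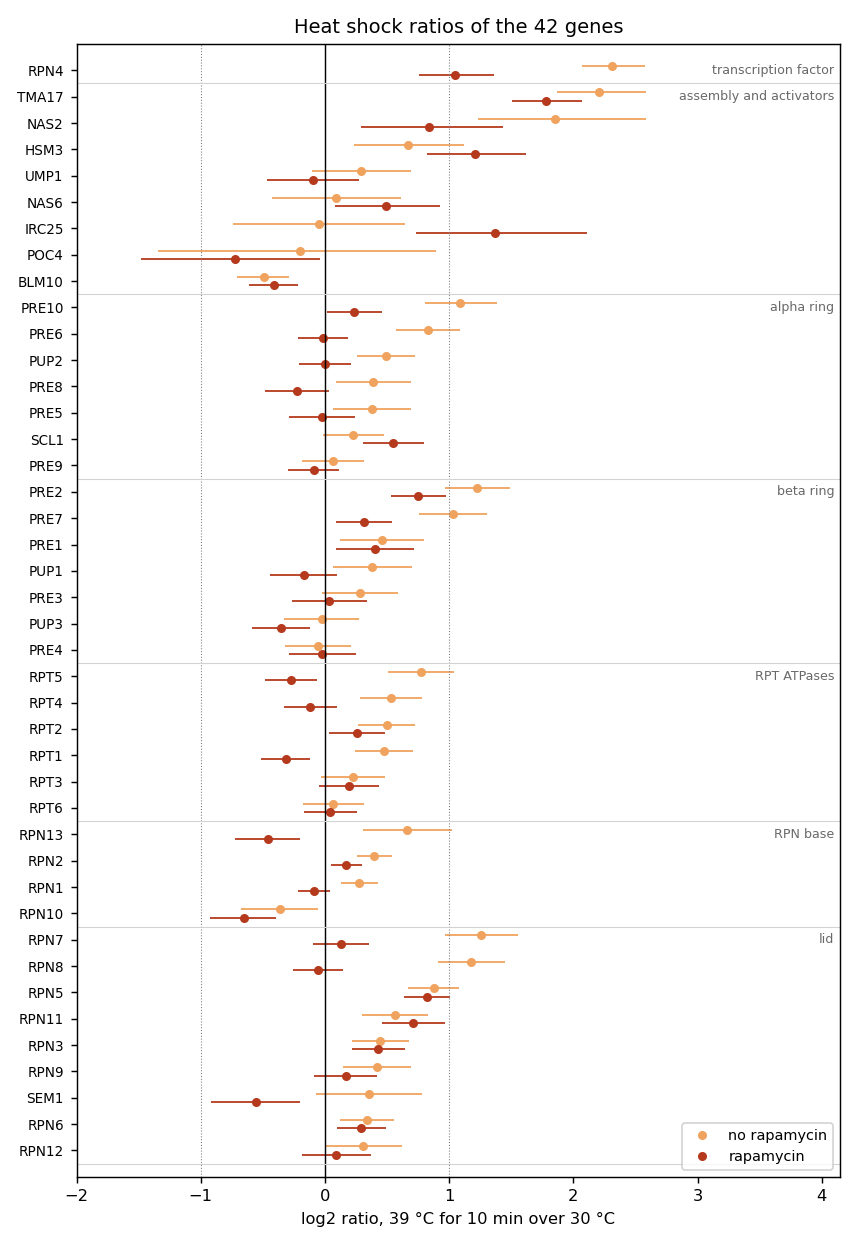
Heat shock ratios (log2, 39 °C for 10 min over 30 °C) of the 42 genes without and with rapamycin, by role; points are ratios of 2 libraries, bars 95% counting intervals of the reads, and dotted lines mark 2-fold. RPN4 stands at 2.31 without and 1.05 with rapamycin, TMA17 at 2.21 and 1.78, and most subunit genes lie between 0 and 1.25 without rapamycin and around 0 with it.

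At 30 °C the libraries with and without rapamycin gave a scattered picture. Of the 33 subunit genes 14 had ratios above 0, against 51.2% of all features, and 19 below, with a median of -0.05, or -0.06 relative to all features. Intervals lay above 0 for 6 and below for 13. The scatter among them, an SD of 0.41, was larger than the typical counting error of a ratio, a median standard error of 0.13. Of all 42 genes 3 were at least 1.5-fold higher (14.6% of all features), POC4, RPN13 and RPN8, and 4 were at least 1.5-fold lower (12.6%), IRC25, RPN4, SCL1 and PRE4. None was at least 2-fold higher (4.7% of all features) and IRC25 was the 1 at least 2-fold lower (4.02%), a count that was 4 on library totals (10.3%). RPN13 was 1.74-fold higher (1.395 to 2.18) and RPN8 1.66-fold higher (1.39 to 1.999), whereas SCL1 was 1.72-fold (1.45 to 2.06) and PRE4 1.67-fold lower (1.398 to 2.01).

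In heat shock the subunit genes were lower with rapamycin, by nearly the same factor. All 33 had ratios below 0, against 46% of all features, from -0.73 for PRE3 to -0.11 for PUP3, and 31 had intervals below 0. The median was -0.48, or -0.52 relative to all features, and the summed level was 11216 with and 15641 without rapamycin, a log2 ratio of -0.48 (-0.52 to -0.44). Their SD was 0.14, near the median counting standard error of 0.11 and well under the 0.41 at 30 °C. On library totals, where 88.9% of all features were above 0, the median was 0.01 and 16 were below 0. The median relative to all features was -0.52 there too, by construction. All 33 lay below the median of all features, as 50% of features do by construction. On protein-coding totals, where 82.2% of all features were above 0, 29 were below 0, with a median of -0.15. The protein-coding share of reads was 59.6% without and 66.5% with rapamycin, and its part in the result was not tested.

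The roles were close to each other in this comparison. Medians were -0.47 for the alpha ring, -0.51 for the beta ring, -0.57 for the RPT ATPases, -0.39 for the other base genes and -0.48 for the lid. PRE3, the gene of the caspase-like catalytic subunit (YJL001W), was at 239, 171, 291 and 175 and 1.66-fold lower (1.35 to 2.05). Of all 42 genes 11 were at least 1.5-fold lower (26.2%, all features 8.22%) and none at least 1.5-fold higher (13% of all features). RPN4 was the 1 at least 2-fold lower (2.46% of all features), and none was at least 2-fold higher (4.56%). On library totals 1 of the 42 was at least 1.5-fold lower (2.16% of all features) and 3 were higher (44.03%). The 3 genes with ratios above 0 were POC4 (0.29), IRC25 (0.23) and NAS6 (0.13), and their intervals included 0.

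**Figure D4:**
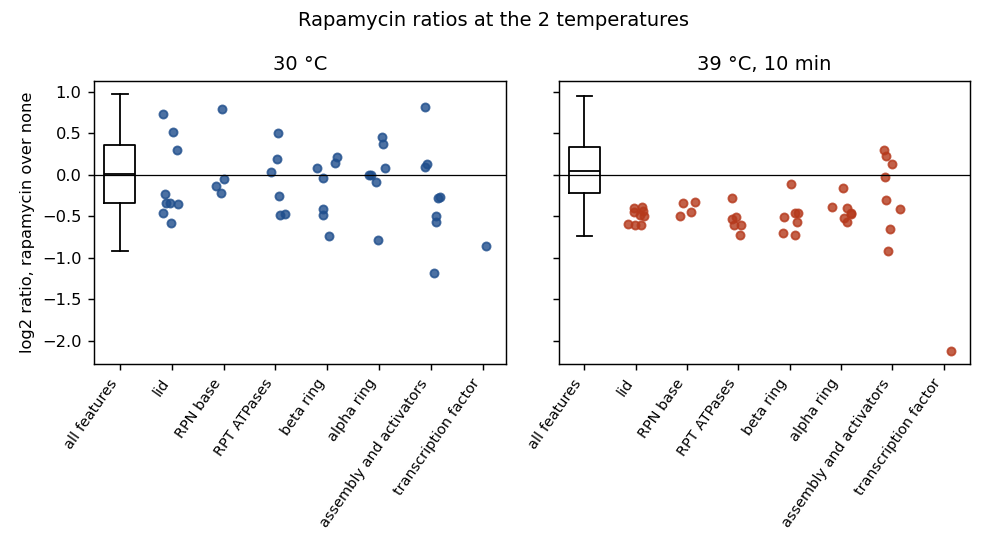
Rapamycin ratios (log2, with over without) at 30 °C and in heat shock for the 42 genes by role, 1 point a gene, beside all 5642 features (box from the lower to the upper quartile with the median; whiskers from the 5th to the 95th percentile). The subunit genes spread with an SD of 0.41 at 30 °C and 0.14 in heat shock, where all 33 lie below 0 and RPN4 lies at -2.12.

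The heat shock ratios with and without rapamycin differed most, in the lower direction, for RPN4, RPN8, RPN7, RPN13, RPT5 and NAS2. These 6 had a difference of at least 2-fold lower, against 8.29% of all features, IRC25 was the 1 at least 2-fold higher (9.25%), and 13 of the 42 were at least 1.5-fold lower (17.7%). RPN8 had the largest among subunits, 2.34-fold (1.86 to 2.98), followed by RPN7 at 2.18-fold (1.69 to 2.82), RPN13 at 2.17-fold (1.598 to 2.97) and RPT5 at 2.06-fold (1.63 to 2.61). These 4 were all higher with rapamycin at 30 °C (ratios of 0.51 to 0.80) and lower with it in heat shock (-0.61 to -0.32), close to the other subunits there. The difference of heat shock ratios is also the rapamycin ratio in heat shock minus that at 30 °C. Genes picked for a low difference therefore tend to stand high with rapamycin at 30 °C, and this is no separate result. At the other end HSM3 (0.54) and NAS6 (0.40) followed IRC25. Over the 33 subunits the median difference was -0.33, or -0.39 relative to all features, and 30 were below 0, against 46.9% of all features; on library totals, where 88.9% of all features were above 0, the median was 0.52 and 6 were below 0.

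Subunit genes with and without PACE were close in heat shock without rapamycin. Those with the whole word had a median ratio of 0.44 (27 genes) and those without 0.38 (6 genes). With rapamycin the medians were 0.13 and -0.31, and all 6 genes without the word were below 0 against 9 of the 27 with it, which is a description of few genes. Of the 6, PRE5, PUP1 and RPN8 held the core word, and their ratios of -0.03, -0.17 and -0.06 were the nearest to 0. Library totals move all features by 0.40 in this comparison, so the count below 0 also depends on the scale. At 30 °C the rapamycin ratio had medians of -0.22 with the word and 0.19 without. There 9 of the 27 and 5 of the 6 were above 0, against 51.2% of all features. The library at 30 °C with rapamycin enters both that ratio and the heat shock ratio with rapamycin, so the split is not particular to heat. In heat shock the rapamycin ratio had medians of -0.50 with the word and -0.43 without.

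Levels per length placed the subunit genes well above a typical gene and close together. The median subunit had 314, 287, 425 and 307 normalised reads per kb of coding length in the 4 libraries, against 78.3, 76.9, 76.7 and 80.1 for the median of 5431 protein-coding genes. The highest subunit was 3.17, 3.10, 2.45 and 2.27 times the lowest, and the coefficient of variation over the 33 was 25.6%, 33.8%, 25.2% and 26.8%. The RPT genes were the most even in heat shock, with coefficients of variation of 9.51% without and 9.03% with rapamycin, against 15.2% and 18.2% at 30 °C. Assembly genes were lower, with medians of 104, 85.4, 129 and 115 per kb. UMP1 and TMA17 were the exceptions. UMP1 lay within the range of the subunit genes in every library, at 323, 268, 396 and 251 per kb. TMA17 reached 1175 per kb in heat shock without rapamycin, more than any subunit gene, of which PRE7 was highest at 688.

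**Figure D5:**
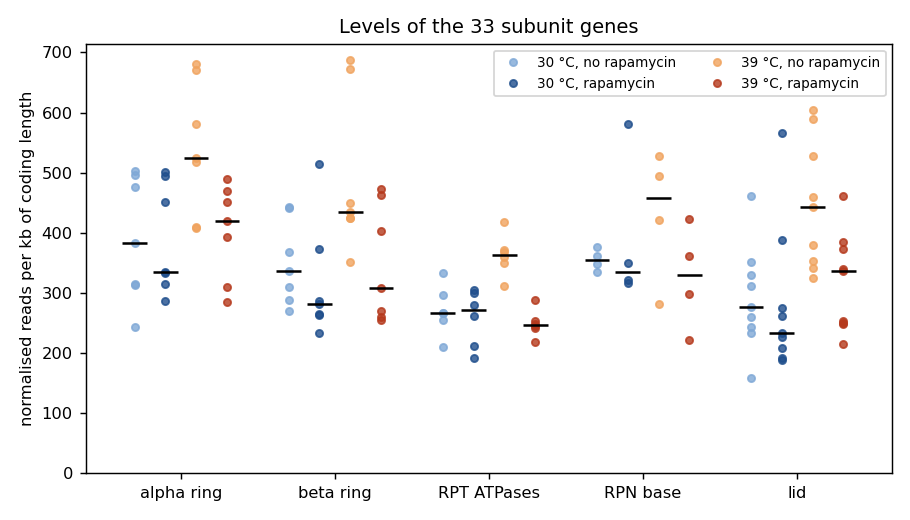
Levels of the 33 subunit genes by role in the 4 libraries, in normalised reads per kb of coding length; each point is 1 gene in 1 library and each line the median of the role. Medians are highest at 39 °C without rapamycin in every role, and in both heat shock libraries the RPT genes lie closest together.

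Genes that work with the proteasome were taken from lists of partner genes. Of 9 other proteasome-bound factors 2 were at least 2-fold higher in heat shock without rapamycin, near the 19.8% of all features, the base chaperone gene RPN14 at 57.2, 51.5, 120 and 68.2 (2.08-fold, 1.42 to 3.15) and the deubiquitinase gene UBP6 at 253, 224, 516 and 342 (2.03-fold, 1.695 to 2.46). With rapamycin the ubiquitin ligase gene HUL5 was the 1 past 2-fold, at 127, 92.4, 238 and 197 (2.12-fold, 1.68 to 2.73). Of 8 shuttle factor and Cdc48 genes, DDI1, a shuttle protein gene, was at 107, 68.4, 247 and 142, higher by 2.29-fold (1.75 to 3.07) and 2.06-fold (1.57 to 2.77). RAD23, the gene of a shuttle that also acts in DNA repair, was at 383, 410, 181 and 203. It was lower by 2.11-fold (1.698 to 2.64) and 2.02-fold (1.71 to 2.39), alike with and without rapamycin on the deposited scale. CDC48, the segregase gene, was at 2052, 1876, 2654 and 1784, with ratios of 0.37 and -0.07 and a rapamycin ratio in heat shock of -0.57. In that last comparison, rapamycin in heat shock, 8 of the 9 factors and 7 of the 8 shuttle and Cdc48 genes were below 0, against 46% of all features. On library totals 4 and 3 of them were, where 88.9% of all features were above 0.

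edgeR's quasi-likelihood test on the recovered reads, with heat and rapamycin as additive terms over the 4 libraries, called 6 of the 42 genes higher with heat at an adjusted p under 0.05, where it called 20.2% of all features. These were RPN4, TMA17, NAS2, HSM3, PRE2 and RPN5. For rapamycin it called RPN4 alone of the 42, as lower, where it called 0.354% of all features lower and 0.106% higher. The model leaves 1 residual degree of freedom and compares these libraries, not the conditions.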

How the data were processed

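RNA-seq was done on total RNA from 4 libraries, 1 per group. Per the submitters' processing notes the tools were TopHat and HTSeq and the build sacCer3, with no versions. The deposited signal values are read counts divided by 1 size factor per library: within 0.0055, 100% of values above 0 were whole multiples of the value of 1 read (1.43, 0.888, 1.50 and 0.961). Median-of-ratios factors recomputed from these reads differed by at most 0.515% from the deposited ones.

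Ratios were computed on the log2 scale from the deposited values. Features with a mean of at least 5 were kept, the pseudocount was 1, and intervals are exact conditional binomial intervals, or odds ratio intervals for the difference of heat shock ratios. They cover counting error only. Symbols, coordinates and sequences come from RefSeq R64, where the 42 genes overlap no other gene. No stretch of 100 bases elsewhere in the genome matched a member at 90% identity. The promoter windows end at the start codon.

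The genes and lists were chosen with earlier results of these data known. Named with values were RPN4, the assembly genes, the highest and lowest gene of each role in heat shock, genes past 2-fold, the extremes of the other comparisons, RPN4 regulators and listed genes past 2-fold in heat shock. Code was tested on simulated data. Alternatives were other scalings, pseudocounts and filters, protein-coding features alone, other word searches, and edgeR 4.0.16 on the recovered reads. Python 3.11.15 with scipy 1.17.1 was used.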

Additional observations from a re-analysis of the deposited data

Results flagged for a closer look

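For 3 subunit genes the counting intervals of the heat shock ratio lay on opposite sides of 0 without and with rapamycin: RPT1 at 0.47 and -0.32, RPT5 at 0.77 and -0.27, and RPN13 at 0.66 and -0.46. For 6 the same held of the rapamycin ratio at 30 °C and in heat shock: PRE6 at 0.37 and -0.47, PRE10 at 0.46 and -0.39, RPT5 at 0.51 and -0.53, RPN13 at 0.80 and -0.32, RPN7 at 0.51 and -0.61, and RPN8 at 0.73 and -0.50. These signs hold on the deposited scale. On library totals the heat shock ratios without and with rapamycin were 0.03 and 0.09 for RPT1 and 0.33 and 0.13 for RPT5. RPN13 kept opposite signs, at 0.22 and -0.05. The rapamycin ratios at 30 °C and in heat shock were both above 0 for PRE10 (0.10 and 0.09) and RPN13 (0.43 and 0.16). They kept opposite signs for RPT5 (0.15 and -0.05), RPN7 (0.15 and -0.12) and RPN8 (0.37 and -0.01). How many of all features met the same rule was not counted, so these counts have no share to be set against. With 1 library a group these differences were not tested.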

How the results depend on the processing

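No paired analysis was possible because each group holds 1 library, and for the same reason no library could be left out. Median-of-ratios and TMM factors, a pseudocount of 0.25 or 5, a filter at 20 or no filter, and protein-coding features alone kept each count of genes past 2-fold within 1.5 times. Library totals did not: in heat shock without rapamycin the median was -0.038 (0.41 as deposited) and 3 genes were at least 2-fold higher (12.8% of all features). In heat shock with rapamycin they gave 0.47 (0.07) and 8 (28.02%), at 30 °C a median of -0.47 (-0.11) and 4 at least 2-fold lower (10.3%), and between the 39 °C libraries a median of 0.019 (-0.47). For the difference of heat shock ratios they gave 0.50 (-0.35), with 4 at least 2-fold higher (43.8%) and 0 lower (2.32%). Protein-coding totals gave 0.080 and 3 in heat shock without rapamycin, 3 lower at 30 °C, -0.14 between the 39 °C libraries, and for the difference 0.23, 2 higher and 0 lower. These scalings shift all features alike.

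The core word put PACE in 30 genes and a 300-base window in 27. edgeR's quasi-likelihood test with an additive model, which has 1 residual degree of freedom and counts any interaction as noise, called 1140 features higher and 1090 lower for heat, and 6 higher and 20 lower for rapamycin. POC4, with 14 to 49 reads a library, limits what can be said of it: its heat shock fold without rapamycin, 1.15 in the lower direction, has an interval of 0.537 to 2.54.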

Other observations

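Outside the 42 genes, 39 kept genes held PACE within 250 bases of the start codon. In heat shock without rapamycin 18 of them were at least 1.5-fold higher (46.2%), against 29.0% of 5350 kept genes without the word, with medians of 0.37 and -0.02. With rapamycin 12 were (30.8%, against 28.4%). Between the heat shock libraries 10 were at least 1.5-fold lower with rapamycin (25.6%, against 6.19%), with medians of -0.34 and 0.06. These counts and medians hold on the deposited scale, and library totals move all features by 0.48 between the heat shock libraries. Of the listed partner genes, ECM29, CDC48 and YAP1 held the word. ECM29, whose protein tethers core and cap, was at 475, 298, 565 and 296, 1.91-fold lower with rapamycin in heat shock (1.64 to 2.23). A word match is a description of the letters in the window and not evidence of binding.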
